A study of Homo sapiens with 8 samples.

Results

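The transcripts of 35 genes of sugar breakdown and of the response to low oxygen were examined in HaCaT, an immortal human keratinocyte line that stands in for the cells of the outer skin. The genes were chosen as a fixed list of symbols, matched by Entrez gene identifier, and all 35 were found among the 17131 genes of the table. Estimated read counts were summed over the RefSeq transcripts of each gene, and all 35 were among the 12434 genes with enough counts to be tested. The cells carried the wild type genotype entry and were stimulated with M5, a psoriasis-like cocktail of 5 cytokines, oncostatin M, TNF-α, IL-1α, IL-17A and IL-22, at 10 ng/mL apiece for 24 h. The study compared M5 alone with M5 after OTS514, an inhibitor of the kinase TOPK that the methods give as 10 nM for 12 h before M5. The 8 libraries comprise 4 titled M5_O5 and 4 titled M5, and their labels conflict. Where the title is M5_O5, which looks like M5 plus OTS514, the treatment entry is none, and where the title is M5 the entry names the TOPK inhibitor. Groups are therefore named by title, and each direction is given between titles. Both groups received M5, no unstimulated culture was analysed here, and all cells come from 1 line. Nothing in the sources used here says that the replicates were separate cultures, so p-values measure only the spread between these samples.

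Glycolysis turns glucose into pyruvate in the cytosol. Glucose enters through transporters, is trapped by hexokinases, is split after the step of phosphofructokinase, and ends as pyruvate, which lactate dehydrogenase can turn into lactate or mitochondria can oxidise. Many of these genes are targets of the hypoxia-inducible factor (HIF), whose alpha subunit is marked for destruction by prolyl hydroxylases while oxygen is present. Keratinocytes rely on glycolysis, and the glucose transporter GLUT1 and VEGF are known to be raised in psoriatic epidermis.

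Library totals lay between 13708055 counts, in M5 replicate 1, and 16922693 counts, and the 35 genes held between 2.53% and 2.79% of them. The smallest share was also that of M5 replicate 1, which was the lowest M5 library in 26 of the 35 genes after scaling. The same count was not made over all genes. Over all genes, its counts differed from those of the other M5 libraries by a chi-square per gene of 10.23 to 16.28. This value sets a difference against sampling noise. Between the other M5 libraries it was 2.01 to 4.02, and among the M5_O5 libraries 3.02 to 11.15. All 8 keratinocyte markers examined were tested, with 0 higher in M5_O5 by edgeR (0 also at an unadjusted p under 0.05, by DESeq2 and by limma), 5 lower and a median log2 fold change of -0.29. Their summed level was 16638 to 18630 CPM (counts scaled to library size) in M5_O5 and 19733 to 23330 CPM in M5. Of 19 markers of fibroblasts, melanocytes, leukocytes and endothelial cells, 4 had enough counts to be tested, and the other 15 had at most 14 counts in any library, with TYR, PTPRC and KDR at 0. The fibroblast markers COL1A1, LUM and PDGFRA summed to 32.9 to 36.5 CPM in M5_O5 and 42.3 to 57.6 CPM in M5, with COL1A1 lower in M5_O5 (log2 fold change -0.58, adjusted p = 0.000168, edgeR). CD14, the leukocyte marker tested, had 30.8 to 36.4 CPM in M5_O5 and 35.2 to 39.0 CPM in M5. The part of these markers in the results below was not tested. In bulk RNA, fewer cells of a kind and less RNA per cell cannot be told apart.

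The genes of the pathway did not move as 1 block. PFKM, LDHB and ALDOC, each the less abundant form of its enzyme next to its main partner, were higher in the libraries titled M5_O5. So was ADM, the gene of a secreted peptide and also a HIF target. The HIF targets EGLN3, NDRG1 and VEGFA, the glucose transporter SLC2A1, PDK1, CA12, both hexokinases, ALDOA and PFKFB3 were lower. The HIF targets BNIP3, P4HA1 and ANKRD37 were called in neither direction. By edgeR's quasi-likelihood test with Benjamini-Hochberg adjustment over all genes tested, 4 of the 35 genes (11.4%) were higher at an adjusted p under 0.05, where 19.5% of all genes tested were, and 10 (28.6%) were lower, where 17.6% of all genes tested were. The remaining 21 did not pass, with log2 fold changes from -0.19 to 0.26. At a fold change of at least 2, 2 of the 35 were called, PFKM and LDHB, against 3.20% of all genes. LDHB lies at the threshold, and its log2 fold change ranged from 0.96, without M5 replicate 3, to 1.13. In 4 genes every M5_O5 library lay above every M5 library, as in 17.8% of all genes, and in 8 every M5_O5 library lay below every M5 library, as in 15.8% of all genes. The median log2 fold change was -0.06 over the 35 genes and 0.01 over all genes tested.

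**Figure D1:**
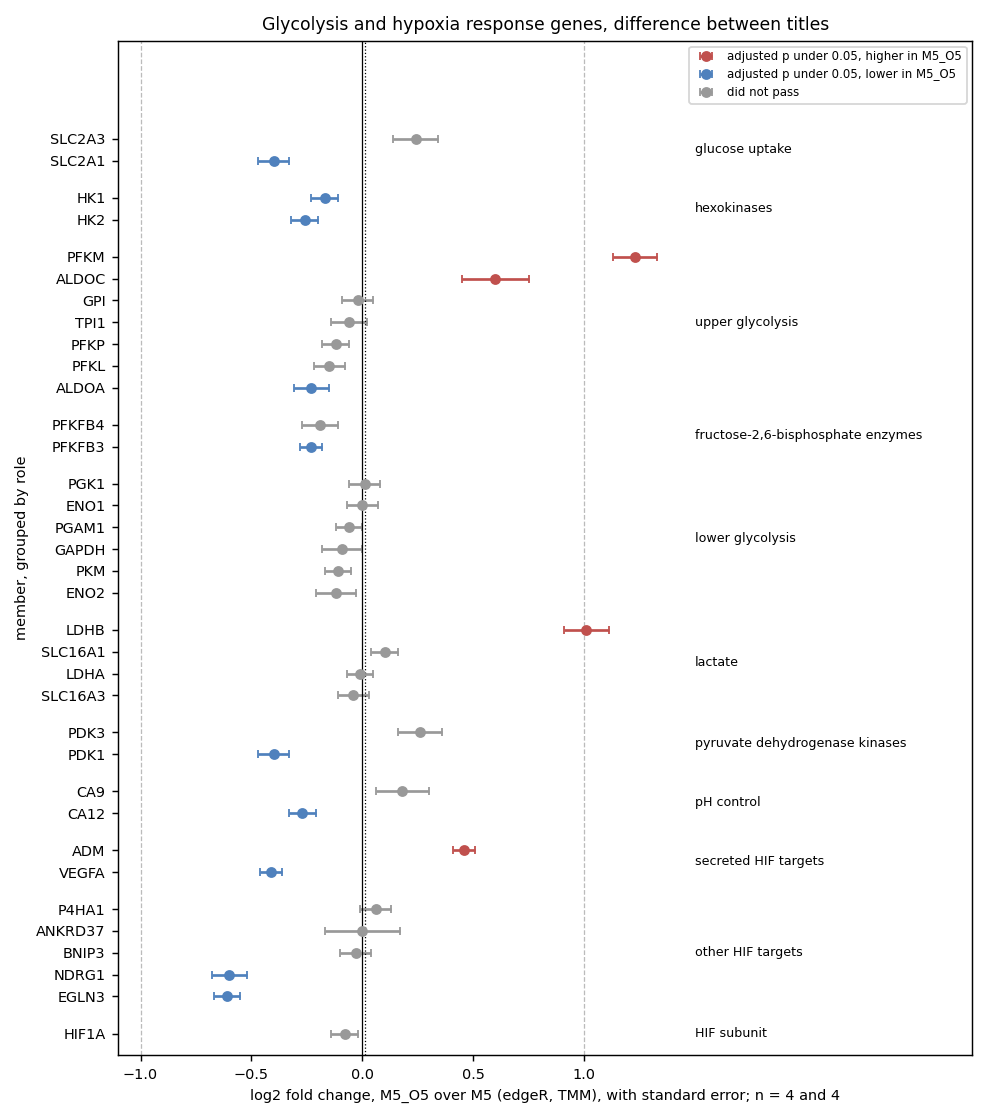
The log2 fold change of each of the 35 genes (M5_O5 over M5, edgeR after TMM scaling, x axis) with its standard error as a bar, grouped by role, with 4 libraries in each group. PFKM and LDHB lie past the dashed line at 1, no gene lies below -1, all 6 genes of lower glycolysis sit between -0.12 and 0.01, and the dotted line marks the median of all genes at 0.01.

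The balance of higher and lower genes depended on the processing. Of the 14 genes that passed, 71.4% were lower, against 47.5% of all genes that passed. With scaling by library size only, 7 were higher and 7 lower, and the median of all genes moved from 0.01 to 0.13. Of all genes tested, 31.0% were then higher and 8.1% lower. With upper quartile scaling 7 were higher and 8 lower, and the median of all genes was 0.07. The shares of all genes were 24.6% higher and 12.3% lower. With limma on log2(TPM + 1), which changed both the scale and the test, 8 were higher and 4 lower, and the median of all genes was 0.12. Here 26.2% of all genes were higher and 6.1% lower. The 8 genes ADM, ALDOC, EGLN3, LDHB, NDRG1, PFKM, SLC2A1 and VEGFA passed in the same direction under all 19 alternatives run. HK1, HK2, ALDOA, PFKFB3, PDK1 and CA12 lost their call under at least 1 of them.

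Promoter sequences are shown for genes that differed in opposite directions and for LDHA, the abundant partner of LDHB, because HIF binds a short core, ACGTG or GCGTG. The sequences are the 250 bases before the first transcription start that RefSeq lists for the gene on GRCh38.p14, 5′ to 3′ on the gene's strand, with each match to ACGTG or GCGTG on either strand in capitals. The palindrome CACGTG, an E-box, holds ACGTG on both strands. The sequences of LDHA (chr11:18394313-18394562, plus strand), LDHB (chr12:21657843-21658092, minus strand), ALDOC (chr17:28576896-28577145, minus strand), ADM (chr11:10304823-10305072, plus strand) and EGLN3 (chr14:33951075-33951324, minus strand) read as follows.
LDHA: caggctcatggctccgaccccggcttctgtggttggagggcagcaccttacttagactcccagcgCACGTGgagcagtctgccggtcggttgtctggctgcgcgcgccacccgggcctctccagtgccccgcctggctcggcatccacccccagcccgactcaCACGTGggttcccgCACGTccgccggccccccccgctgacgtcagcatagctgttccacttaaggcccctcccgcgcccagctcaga
LDHB: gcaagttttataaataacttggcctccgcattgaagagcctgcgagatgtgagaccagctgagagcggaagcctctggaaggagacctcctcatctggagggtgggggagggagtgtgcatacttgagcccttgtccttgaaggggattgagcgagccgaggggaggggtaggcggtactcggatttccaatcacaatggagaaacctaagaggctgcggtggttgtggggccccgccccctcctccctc
ALDOC: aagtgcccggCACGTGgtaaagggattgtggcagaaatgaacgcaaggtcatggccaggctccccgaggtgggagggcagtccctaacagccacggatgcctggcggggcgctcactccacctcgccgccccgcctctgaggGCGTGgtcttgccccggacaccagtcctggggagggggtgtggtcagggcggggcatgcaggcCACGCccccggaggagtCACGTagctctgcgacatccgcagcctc
ADM: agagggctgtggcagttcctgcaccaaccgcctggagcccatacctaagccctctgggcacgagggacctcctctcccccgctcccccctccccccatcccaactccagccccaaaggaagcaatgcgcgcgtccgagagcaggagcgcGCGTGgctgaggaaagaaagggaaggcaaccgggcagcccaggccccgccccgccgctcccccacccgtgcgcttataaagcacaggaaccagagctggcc
EGLN3: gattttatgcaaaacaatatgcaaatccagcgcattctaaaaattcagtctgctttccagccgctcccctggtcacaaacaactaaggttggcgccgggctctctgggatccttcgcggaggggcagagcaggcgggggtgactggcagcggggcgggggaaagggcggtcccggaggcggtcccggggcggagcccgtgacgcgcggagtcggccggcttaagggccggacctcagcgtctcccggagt

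LDHA and ALDOC each carried CACGTG in these windows, ADM carried GCGTG, and the 250 bases shown for LDHB and EGLN3 held neither core. In the 50 bases after its start, which are not shown, LDHB carried GCGTG, so it counts among the genes with a core below. RefSeq promoters were at hand for 31 of the 35 genes, without NDRG1, SLC16A1, SLC2A3 and VEGFA. Over 300 bases, from 250 before to 50 after the start, 23 of the 31 (74.2%) held ACGTG or GCGTG, as did 48.4% of the promoters of 27305 genes. The 27305 genes were not limited to those with enough counts to be tested here, as all of the 31 were. ACGTG was present in 13 (41.9%, against 21.6%), GCGTG in 16 (51.6%, against 36.3%) and CACGTG in 5 (16.1%, against 7.4%). By call, a core was found in 3 of 4 higher genes, 5 of 8 lower genes and 15 of 19 genes that did not pass. For 11 of the 31 genes RefSeq lists more than 1 start, and PFKM has 7. A core was present at any listed start in 29 of the 31 (93.5%, against 52.4% of all genes), a choice of window made after seeing the data. A gene with more listed starts has more windows in which a core can match. These shares were not adjusted for the number of starts, so they cannot show whether the 31 genes are richer in cores. The part of the number of starts in this contrast was not tested. These are matches of letters, and binding was not measured.

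SLC2A1 (Entrez gene 6513) encodes GLUT1, the main glucose transporter of keratinocytes. Its level was 302, 350.1, 349.8 and 317 CPM in M5_O5 replicates 1 to 4 and 379, 464, 450.3 and 449 CPM in M5 replicates 1 to 4. All M5_O5 libraries lay below all M5 libraries, and M5 replicate 1 was the nearest to them. The fold change was 0.76 (log2 fold change -0.40, standard error 0.07, adjusted p = 0.000685, edgeR). SLC2A3, which encodes the high-affinity transporter GLUT3, had 31.8, 40.7, 41.2 and 45.5 CPM in M5_O5 and 29.6, 31.7, 35.7 and 37.2 CPM in M5. Its groups overlapped and it did not pass (0.24, adjusted p = 0.0756). Alternatives under which it was called higher included library size only (0.36), upper quartile scaling (0.30) and limma on log2(TPM + 1) (0.34).

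Both hexokinase genes were lower in M5_O5, by small amounts. Hexokinases phosphorylate glucose and thereby keep it in the cell. HK1 (Entrez gene 3098), the widely expressed form, had 331, 374, 363 and 352 CPM in M5_O5 and 362, 419.6, 406 and 413 CPM in M5. The groups overlapped through M5_O5 replicate 2 and replicate 3 and M5 replicate 1 (log2 fold change -0.17, standard error 0.06, adjusted p = 0.0378, edgeR), and the call was lost without any 1 of 6 libraries. HK2, the inducible form and a HIF target, lay between 337 and 366 CPM in M5_O5 and between 388 and 453 CPM in M5, with no overlap (-0.26, standard error 0.06, adjusted p = 0.00346). By limma on log2(TPM + 1) its difference was -0.13 and did not pass, while edgeR with library size only gave -0.14, which passed.

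Among the 7 genes of upper glycolysis the differences went both ways. PFKM (Entrez gene 5213), the muscle form of phosphofructokinase, which commits sugar to glycolysis, had 26.2, 28.2, 26.4 and 24.2 CPM in M5_O5 and 13.9, 9.34, 11.3 and 10.5 CPM in M5. The M5_O5 libraries lay close together and all were well above the M5 libraries, of which replicate 1 was the highest. This was the largest difference of the 35 genes, a fold change of 2.34 (log2 fold change 1.23, standard error 0.10, adjusted p = 2.13e-06, edgeR), and it rested on 143 to 491 reads per library. PFKP (Entrez gene 5214), the platelet form and the most abundant of the 3, had 397, 391, 414 and 394 CPM in M5_O5 and 381, 456, 441 and 459.9 CPM in M5. M5 replicate 1 lay below every M5_O5 library and the other M5 libraries lay above them, and the gene did not pass (-0.12, adjusted p = 0.139). PFKL, the liver form, did not pass either (-0.15, adjusted p = 0.123).

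Aldolase splits the sugar bisphosphate into smaller triose phosphates. ALDOA (Entrez gene 226), the main form, had 1555, 1649.8, 1753 and 1512 CPM in M5_O5 and 1586, 2074, 2049.9 and 1895 CPM in M5. M5 replicate 1 lay inside the M5_O5 range and the other M5 libraries above it (log2 fold change -0.23, standard error 0.08, adjusted p = 0.0392, edgeR), and the call was lost without any 1 of 6 libraries. ALDOC (Entrez gene 230), the form known from brain, had 49.9, 75.7, 77.6 and 68.7 CPM in M5_O5 and 30.4, 50.3, 48.7 and 49.5 CPM in M5. Replicate 1 was the lowest of its group under both titles, and M5_O5 replicate 1 fell within the M5 range. The fold change was 1.52 (log2 fold change 0.60, standard error 0.15, adjusted p = 0.00616). GPI, the isomerase at the start of the pathway, and TPI1, which interconverts the products of aldolase, did not pass (-0.02 and -0.06).

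PFKFB3 and PFKFB4 make or remove fructose-2,6-bisphosphate, which activates phosphofructokinase and is not the sugar bisphosphate that aldolase splits. PFKFB3 chiefly makes it. PFKFB3 (Entrez gene 5209) had 375, 378, 389 and 376 CPM in M5_O5 and 437, 463, 428 and 450.2 CPM in M5. The M5_O5 libraries were tight and lay below all M5 libraries (log2 fold change -0.23, standard error 0.05, adjusted p = 0.00287, edgeR). PFKFB4 was 40.3 to 47.8 CPM against 44.6 to 55.6 CPM and did not pass (-0.19, adjusted p = 0.0584). PFKFB3 differed by -0.11 and did not pass by edgeR with library size only, nor by limma on log2(TPM + 1).

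Lower glycolysis, from glyceraldehyde phosphate to pyruvate, held the most abundant transcripts of the list, and 0 of its 6 genes passed edgeR's test, with 0 at an unadjusted p under 0.05, 0 by DESeq2, and by limma on log2(TPM + 1) 1, PGK1 (0.14, higher). With the trend on expression level removed, PGK1 and ENO1 were called higher (0.21 each). GAPDH (Entrez gene 2597), which oxidises glyceraldehyde phosphate and is often used as a reference gene, had 2836, 3292, 3333 and 2903 CPM in M5_O5 and 2672, 3694, 3481 and 3350.0 CPM in M5. M5 replicate 1 was the lowest of all 8 libraries and the other M5 libraries were the highest (-0.09, standard error 0.09, adjusted p = 0.452). PGK1 and PKM, the kinases that make ATP, differed by 0.01 and -0.11, the mutase PGAM1 by -0.06, and the enolases ENO1 and ENO2 by 0.00 and -0.12. Without M5 replicate 1, GAPDH (-0.18) and ENO2 (-0.22) were called lower, as were TPI1, PFKL, PFKP and PFKFB4, so that 16 of the 35 genes were lower and 4 higher. Over all genes tested without this library, 19.9% were lower and 22.9% higher. PKM yields the enzymes M1 and M2 by the choice of 1 exon. The transcript of M2 made up 97.69% to 98.11% of PKM's TPM in M5_O5 and 97.31% to 97.54% in M5, and the transcripts of M1 made up 0.45% to 0.79% and 0.94% to 1.10%, estimates that depend on how reads were divided between transcripts that share most of their sequence.

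The 2 lactate dehydrogenase genes behaved differently. LDHA (Entrez gene 3939) encodes the subunit that favours making lactate and is a classical HIF target. Its level was 2796, 2893, 2698 and 2872 CPM in M5_O5 and 2709, 2873, 2842 and 2892 CPM in M5. The groups covered almost the same range (log2 fold change -0.01, standard error 0.06, adjusted p = 0.935, edgeR). LDHB (Entrez gene 3945), whose subunit is typical of oxidative tissue, had 37.4, 30.7, 37.8 and 34.8 CPM in M5_O5 and 20.6, 17.7, 15.5 and 16.1 CPM in M5. Every M5_O5 library lay above every M5 library, with a fold change of 2.01 (log2 fold change 1.01, standard error 0.10, adjusted p = 4.71e-06) on 236 to 644 reads per library. The lactate carriers SLC16A1 (MCT1) and SLC16A3 (MCT4) did not pass (0.10 and -0.04).

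**Figure D2:**
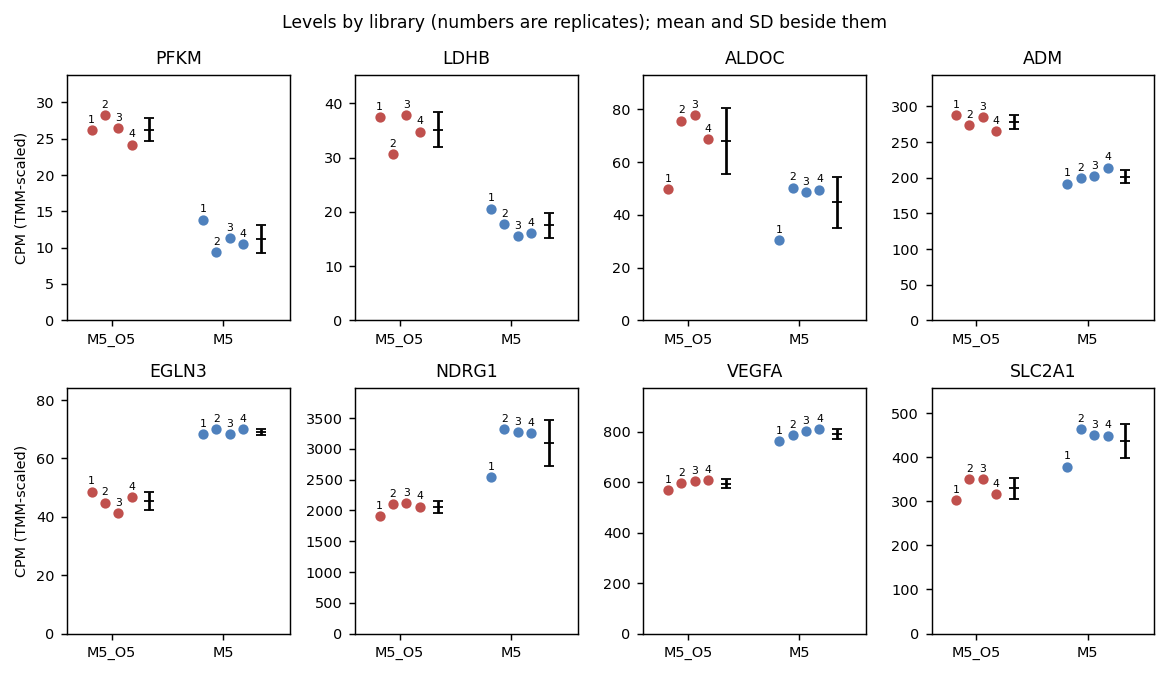
Level of 8 genes in each library in TMM-scaled CPM (y axis from 0), with M5_O5 in red and M5 in blue, replicate numbers above the points, and the mean with its SD (n = 4) beside them. The groups are apart in every gene but ALDOC, where M5_O5 replicate 1 (49.9) falls among the M5 libraries, and NDRG1 and SLC2A1 show M5 replicate 1 below the other M5 libraries.

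Pyruvate dehydrogenase kinases switch off the enzyme that feeds pyruvate into mitochondria, and PDK1 is induced by HIF. PDK1 (Entrez gene 5163) had 37.5, 33.5, 33.7 and 37.6 CPM in M5_O5 and 46.8, 42.1, 48.6 and 49.8 CPM in M5. The groups did not overlap (log2 fold change -0.40, standard error 0.07, adjusted p = 0.000672, edgeR), and edgeR with library size only kept the call (-0.28). By limma on log2(TPM + 1) a difference of -0.29 did not pass. PDK3 (Entrez gene 5165) had 7.61, 8.56, 8.12 and 8.44 CPM in M5_O5 and 6.64, 6.20, 7.17 and 7.29 CPM in M5. These groups did not overlap either, and the opposite difference did not pass (0.26, standard error 0.10, adjusted p = 0.0621). PDK3 was called higher with library size only (0.38), with upper quartile scaling (0.32) and by limma on log2(TPM + 1) (0.32).

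CA9 and CA12 encode carbonic anhydrases of the cell surface, which help cells dispose of acid. CA12 (Entrez gene 771) had 231, 268, 241 and 261 CPM in M5_O5 and 285, 309, 305 and 311 CPM in M5. It was lower in every M5_O5 library (log2 fold change -0.27, standard error 0.06, adjusted p = 0.00266, edgeR), and edgeR with library size only kept the call (-0.16). By limma on log2(TPM + 1) a difference of -0.15 did not pass. CA9, among the most specific hypoxia markers, was low under both titles, at 7.73 to 9.15 CPM and 6.57 to 9.14 CPM, and did not pass (0.18, adjusted p = 0.274). By limma on log2(TPM + 1) CA9 was called higher in M5_O5 (0.29).

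The 2 secreted HIF targets went opposite ways. VEGFA (Entrez gene 7422), the growth factor of blood vessels, had 567, 596, 602 and 608 CPM in M5_O5 and 762, 787, 802 and 811 CPM in M5. Both groups were tight and well apart, with a fold change of 0.75 (log2 fold change -0.41, standard error 0.05, adjusted p = 4.42e-05, edgeR). ADM (Entrez gene 133), which encodes the vasodilator peptide adrenomedullin, lay between 265 and 287 CPM in M5_O5 and between 192 and 214 CPM in M5. Its fold change was 1.38 in the other direction (log2 fold change 0.46, standard error 0.05, adjusted p = 2.37e-05).

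Of the 5 other HIF targets, EGLN3 and NDRG1 were lower in M5_O5. EGLN3 (Entrez gene 112399) encodes a prolyl hydroxylase that HIF induces and that acts back on it. It had 48.6, 44.9, 41.2 and 46.8 CPM in M5_O5 and 68.3, 70.0, 68.2 and 70.2 CPM in M5. The M5 libraries were nearly equal and all lay above the M5_O5 libraries, a fold change of 0.66 (log2 fold change -0.61, standard error 0.06, adjusted p = 7.35e-06, edgeR). NDRG1 (Entrez gene 10397), induced by hypoxia and by differentiation, had 1912, 2101, 2126 and 2063 CPM in M5_O5 and 2545, 3327, 3271 and 3258 CPM in M5. M5 replicate 1 lay between the M5_O5 libraries and the other M5 libraries, and the groups did not overlap (-0.60, standard error 0.08, adjusted p = 9.43e-05). BNIP3, which takes part in the removal of mitochondria, P4HA1, a collagen prolyl hydroxylase, and ANKRD37 did not pass (-0.03, 0.06 and 0.00), the last on 29 to 45 reads per library.

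HIF1A (Entrez gene 3091), the alpha subunit itself, is regulated mainly through the stability of its protein, which was not measured here. Its transcript had 746, 775, 706 and 781 CPM in M5_O5 and 851, 761, 774 and 798 CPM in M5. The groups overlapped, with M5 replicate 1 the highest, and the gene did not pass edgeR's test (-0.08, standard error 0.06, adjusted p = 0.282).

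Levels of different genes were compared in TPM, a unit that divides counts by transcript length and scales every library to the same sum. GAPDH was highest, with a mean of 5216 TPM in M5_O5 and 5093 TPM in M5, and PKM came next, with 4101 TPM and 4060 TPM. PKM's libraries (3895 to 4477 TPM) all lay below those of GAPDH (4551 to 5510 TPM). In M5_O5 they were followed by ENO1 (2634 TPM), LDHA (2394 TPM) and ALDOA (2256 TPM), and in M5 by ALDOA (2428 TPM), ENO1 (2404 TPM) and LDHA (2207 TPM), and over all libraries the ranges of these 3 genes overlapped. NDRG1 lay below TPI1 in M5_O5 (1233 against 1409 TPM) and above it in M5 (1705 against 1345 TPM). PDK3 was lowest under both titles, with a mean of 2.40 TPM over all libraries. Of the genes that were higher in M5_O5, over all libraries ADM had 323 TPM, ALDOC 67.7 TPM, LDHB 42.6 TPM and PFKM 10.9 TPM.

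The balance between partner genes was followed as the ratio of their TPM within a library, which does not depend on how libraries are scaled to each other. PFKP exceeded PFKM by 17.96 times in M5_O5 and 46.59 times in M5, and LDHA exceeded LDHB by 41.15 times and 83.27 times. ALDOA over ALDOC was 26.94 and 48.20, PDK1 over PDK3 was 4.69 and 7.99, and SLC2A1 over SLC2A3 was 9.55 and 14.86. In these 5 pairs the abundant partner led by less in every M5_O5 library than in any M5 library. The differences of the log2 ratio were -1.37 for PFKP and PFKM, -1.02 for LDHA and LDHB, -0.84 for ALDOA and ALDOC, -0.77 for PDK1 and PDK3 and -0.64 for SLC2A1 and SLC2A3. Each had p = 0.0286 by a two-sided exact permutation test, the smallest that 4 libraries against 4 allow, and an adjusted p of 0.0629 over the 11 pairs. Thus 0 of 11 pairs passed after adjustment and 5 had an unadjusted p under 0.05. At this smallest p, passing adjustment would have required more pairs without overlap, however large the difference of any pair. Not passing therefore says little about a given pair.

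The other 6 pairs overlapped between titles. CA9 over CA12 differed by 0.46 on the log2 scale (exact permutation test, p = 0.0571, adjusted p = 0.105), HK2 over HK1 by -0.09, ENO1 over ENO2 by 0.12, SLC16A3 over SLC16A1 by -0.12, PFKFB3 over PFKFB4 by -0.06 and PFKP over PFKL by 0.03. Partner genes are related in sequence, and reads that match both could be divided between them in counting.

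**Figure D3:**
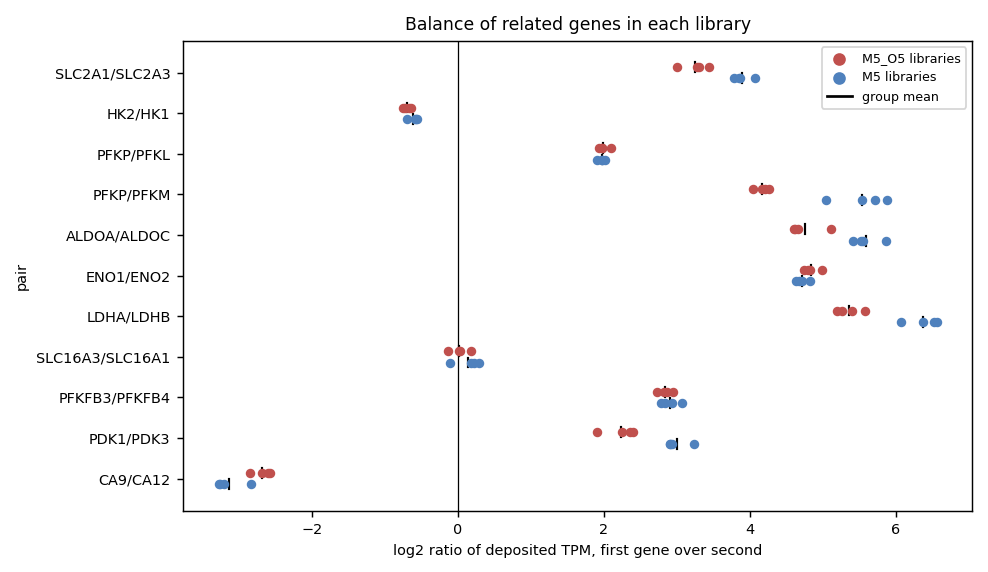
The log2 ratio of TPM between partner genes (first over second, x axis) in each library for 11 pairs, with M5_O5 in red, M5 in blue and group means as black ticks. In the pairs of PFKP and PFKM, LDHA and LDHB, ALDOA and ALDOC, PDK1 and PDK3, and SLC2A1 and SLC2A3 all red points lie left of all blue points, and in the other 6 pairs they mix.

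The difference between titles also followed expression level over the whole table. The median log2 fold change was 0.22 over 3754 genes under 10 CPM, -0.00 over 6577 genes from 10 to 100 CPM, -0.13 over 1999 genes from 100 to 1000 CPM and -0.22 over 104 genes of at least 1000 CPM. Of the 35 genes, 18 lay between 100 and 1000 CPM, with a median of -0.10, and 7 at or above 1000 CPM, with a median of -0.09. The 7 genes between 10 and 100 CPM, among them PFKM, LDHB and ALDOC, had a median of 0.24. With this trend on level removed, 8 of the 35 genes were higher and 5 lower. Of all genes tested, 16.3% were then higher and 14.6% lower. The median was 0.08 over the 35 and -0.00 over all genes. LDHA differed by 0.20 in this fit and passed. The ratios of partner genes, which in the 5 pairs without overlap set an abundant gene over a scarcer one, were not adjusted for this trend. The part of expression level in the differences of single genes and of these ratios was not tested.

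**Figure D4:**
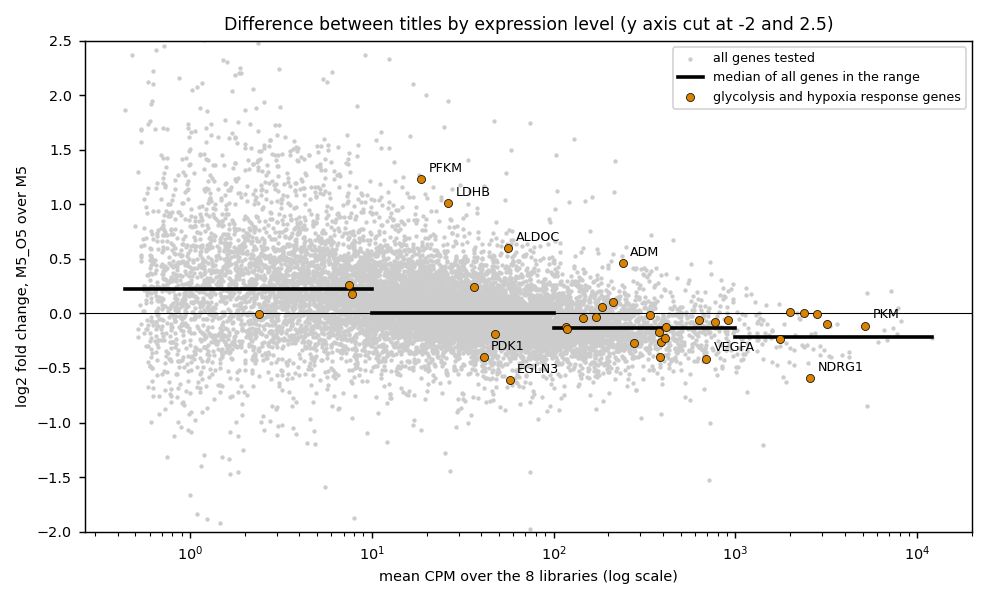
The log2 fold change (M5_O5 over M5, y axis, with a few genes beyond its ends) of each gene tested against its mean CPM (x axis, log scale), with the 35 genes in orange and black bars for the median of all genes in each range of level. The bars step down from 0.22 under 10 CPM to -0.22 at 1000 CPM and above, PFKM and LDHB stand well above the bar of their range, and EGLN3 and NDRG1 well below theirs.

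Lists of neighbouring pathways were counted in the same fit, beside the shares of 19.5% higher and 17.6% lower over all genes. Of 112 such genes tested, 31 were higher in M5_O5 and 21 lower. Among other glycolytic enzymes and regulators, 8 of 14 tested were higher and 0 lower by edgeR, with a median of 0.36 (lower: 1 at an unadjusted p under 0.05, 0 by DESeq2 and 0 by limma). They included PDK2, a further pyruvate dehydrogenase kinase (log2 fold change 0.57, adjusted p = 0.00011, edgeR), the glucose transporter SLC2A12 (0.54, adjusted p = 0.00177) and FBP1, which reverses the step of phosphofructokinase (adjusted p = 0.00956). FBP1 had 4.22 to 4.86 CPM in M5_O5 and 1.18 to 4.38 CPM in M5, where replicate 1 was the highest and overlapped.

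The HIF machinery held 0 higher and 4 lower genes of 15 tested by edgeR, with a median of -0.09. None was higher at an unadjusted p under 0.05 or by DESeq2, which gave 5 lower, and by limma on log2(TPM + 1) 0 passed in either direction. ARNT, the partner of the alpha subunits (-0.27, adjusted p = 0.00353, edgeR), and VHL, which marks them for destruction (-0.28, adjusted p = 0.00814), were both lower. Of 37 other hypoxia-induced genes tested, 7 were higher and 14 lower, with a median of -0.10. STC2, a secreted stanniocalcin, had 29.6, 48.2, 50.6 and 38.03 CPM in M5_O5 and 12.99, 9.47, 10.4 and 10.4 CPM in M5, with no overlap and a wide spread in M5_O5 (1.95, adjusted p = 1.02e-06). PPP1R3C, which directs a phosphatase to glycogen, was higher at a low level (1.09, adjusted p = 0.00489).

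Downstream of pyruvate, 10 of 26 genes of pyruvate dehydrogenase and the tricarboxylic acid cycle were higher in M5_O5 and 2 lower, with a median of 0.15. Malic enzyme ME1 had 34.7 ± 0.59 CPM (SD, n = 4) in M5_O5 and 19.1 ± 1.16 CPM in M5 (0.86, adjusted p = 9.57e-07, edgeR), and fumarase FH had 38.3 ± 2.25 CPM and 24.7 ± 0.95 CPM (0.63, adjusted p = 1.19e-05). Of 9 genes of the pentose phosphate pathway, 2 were higher and 0 lower by edgeR (lower: 0 also at an unadjusted p under 0.05, by DESeq2 and by limma), with a median of 0.15, among them PRPS1, which makes the precursor of nucleotides (1.03, adjusted p = 1.67e-05). Of 11 genes of glycogen metabolism, 4 were higher and 1 lower, with a median of 0.06, and PHKA1, a subunit of phosphorylase kinase, differed most (0.77, adjusted p = 7.4e-05). With scaling by library size only the 112 genes split into 52 higher and 9 lower. Under that scaling 31.0% of all genes tested were higher and 8.1% lower.

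**Figure D5:**
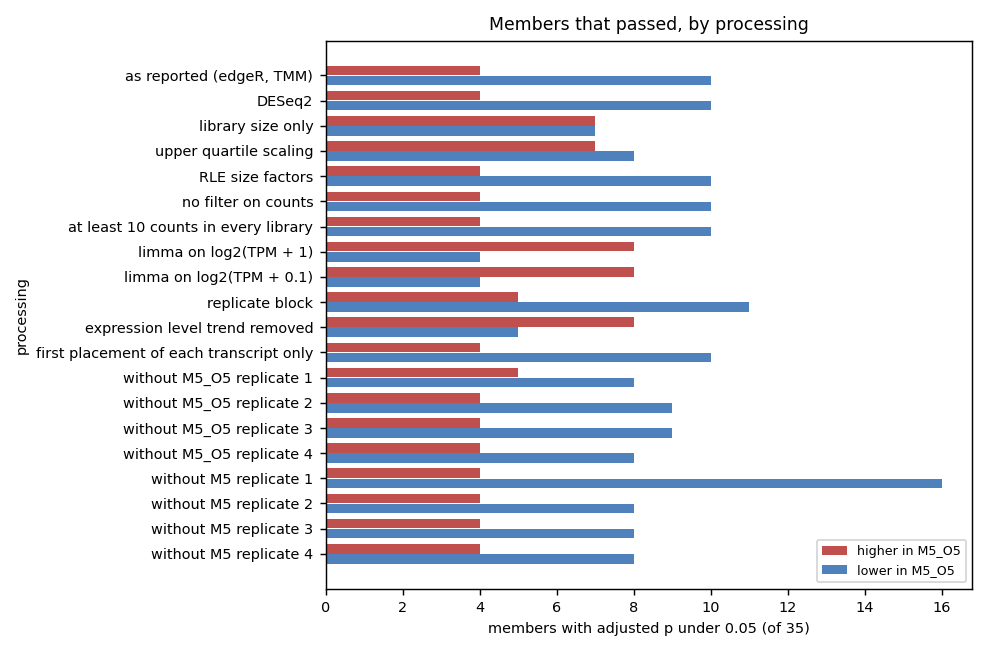
Number of the 35 genes with an adjusted p under 0.05 (x axis) that were higher (red) or lower (blue) in M5_O5 under each processing. The shares over all genes, which also changed with the processing, are not drawn. Lower genes outnumber higher ones, 10 to 4, as reported, the numbers are 7 and 7 with library size only and 8 and 4 with limma on TPM, and without M5 replicate 1 they are 4 higher and 16 lower.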

How the data were processed

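RNA of 8 HaCaT libraries was made into mRNA-seq libraries with the SMARTer kit. The authors' methods name HISAT2, StringTie and FPKM. The submitters' processing notes name HISAT2 2.1.0, Bowtie2 2.2.5, RSEM 1.2.8 and the mouse build mm10, whereas the identifiers of the table are human RefSeq transcripts; the human build is not given in the sources used here. The authors deposited for each of 86639 transcripts an estimated count that was not normalized, with 53.8% of values not whole, and TPM and FPKM, which divide counts by transcript length; the deposited FPKM served only as an alternative for ratios of partner genes. The 35 genes had 206 entries, 13 of them further placements of a transcript. The kit and counting are not stated to keep strand, so antisense reads cannot be told apart.

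Estimated counts were summed per Entrez gene and rounded, filtered with filterByExpr, scaled by TMM and compared with edgeR 4.0.16 (R 4.3.3; quasi-likelihood test, Benjamini-Hochberg adjustment over 12434 genes, threshold 0.05). The F statistic and the fold change gave the standard error. The spread between replicates, which edgeR names the biological coefficient of variation (BCV), was 7.42%, though the replicates are not stated to be separate cultures. Log2 ratios of deposited TPM were compared with exact permutation tests. Alternatives, for the ratios counts and FPKM in place of TPM, were otherwise DESeq2 1.42.0, limma 3.58.1 on log2(TPM + 1) and log2(TPM + 0.1), other scalings and filters, a replicate block, removal of the trend on level (loess, span 0.3) and each library left out. The fits were tested on simulated data.

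The genes, the lists and the tests were chosen with earlier results of these data known. Values by library are given for genes with an absolute log2 fold change of at least 0.5 that passed, the most abundant gene of each role, both partners of pairs at the smallest p, and HIF1A; from other lists, passed genes of at least 0.5 are named, at most 4 in each direction, except 1 that is not reported here. HK2, ADM, PFKFB4, CA9, ARNT and VHL were given values after these had been seen.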

Additional observations from a re-analysis of the deposited data

Results flagged for a closer look

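Each of the 35 genes was examined in both groups of 4 libraries for a single library far from the other 3 on the log2 CPM scale, by Dixon's ratio at its 95% critical value. Of 70 groups, 8 held such a library, and chance gives about 1 in 20, or 3.5. Genes of one library are not independent, so several of these can come together.

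M5 replicate 1 gave 6 of the 8, in each case as the lowest M5 library. For SLC2A1 it had a log2 CPM of 8.57, with the remaining M5 libraries at 8.81 to 8.86. That of ALDOC was 4.92, against 5.61 to 5.65, and that of NDRG1 was 11.31, against 11.67 to 11.70. In lower glycolysis it had 10.76 for PGK1, against 10.99 to 11.03, 9.24 for PGAM1, against 9.34 to 9.35, and 6.60 for ENO2, against 6.99 to 7.05. Without this library SLC2A1, ALDOC and NDRG1 passed in the same direction.

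CA9 in M5 replicate 2 was at 3.19, above 2.72 to 2.78 in the other M5 libraries, and ANKRD37 in M5_O5 replicate 3 was at 1.01, below 1.30 to 1.35 in the other M5_O5 libraries. Both genes had few counts, at most 154 for CA9 and 45 for ANKRD37 in any library.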

How the results depend on the processing

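The count of promoter cores at any listed start (29 genes) was added after seeing the data. The number of genes higher in M5_O5 was 7 with library size only and with upper quartile scaling, and 8 with both limma fits and with the trend on level removed, against 4. The number lower was 4 with both limma fits and 5 with the trend removed, and 8 to 16 with 1 library left out, the 16 without M5 replicate 1. At 2-fold 1 gene was called with DESeq2, with RLE size factors and with the trend removed, and 1 to 2 with 1 library left out. The median of the 35 genes was 0.06 with library size only and 0.08 with the trend removed, where LDHA passed at 0.20. In the other lists, 52 genes were higher and 9 lower with library size only, and 6 were lower with both limma fits. Over all genes tested, 31.0% were higher and 8.1% lower with library size only, and 26.2% and 6.1% with limma on log2(TPM + 1). With the trend removed these shares were 16.3% and 14.6%, and without M5 replicate 1 they were 22.9% and 19.9%. The causes were not tested beyond the construction of each alternative. Replicate numbers were not treated as pairs in the reported fit. The correlations of same-numbered deviations were 0.21, 0.10, -0.00 and 0.01. They were not set against those of libraries with different numbers, so they cannot decide whether the samples are paired. With the replicate block 5 genes were higher and 11 lower. Depth limits PDK3, CA9 and ANKRD37 most.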
